A study of Mus musculus with 16 samples.

Results

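The small leucine-rich proteoglycans (SLRPs) are secreted matrix proteins. The 9 genes described here (Dcn, Bgn, Aspn, Lum, Fmod, Prelp, Omd, Ogn and Podn) were chosen by symbol from the 23996 genes listed in each table of the series. This choice was made with earlier results of these data known. The study asked how Ssu72, a phosphatase of the C-terminal domain of RNA polymerase II, affects gene expression in cells that proliferate to different degrees. RNA-Seq compared Ad-Cre with Ad-Luc infection in 3 cell types of C57BL/6 mice. Ad-Cre is an adenovirus that delivers Cre recombinase, and the labels give the Ad-Cre cells as Ssu72 KO. Ad-Luc is a luciferase adenovirus, and the labels give the Ad-Luc cells as WT, while the study's description has loxP sites around exon 1 of Ssu72 in the infected cells. MEFs, which are embryonic fibroblasts of embryonic day 13.5, had 3 Ad-Cre and 3 Ad-Luc samples. Purified hepatocytes of mice aged 6 weeks, as the labels state, also had 3 Ad-Cre and 3 Ad-Luc samples. ES cells, derived from the inner cell mass, had 2 Ad-Cre and 2 Ad-Luc samples, and the Ad-Luc libraries of this table carry the letters FS where the Ad-Cre libraries carry ES. Since Ad-Luc carries no Cre, the presence of Cre and the loss of exon 1 cannot be told apart in this design.

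The values are FPKM, the number of fragments per kilobase of transcript and per number of mapped fragments, and the authors deposited a single value per gene and group. These are the authors' group values, so no spread between samples and no sequencing depth stands beside any of them. The authors' own tests were not used, and none was run here. A log2 ratio below is that of the Ad-Cre FPKM over the Ad-Luc FPKM, and a gene was counted when it was above 0 in both groups and reached 1 FPKM in the higher one. A counted gene is called lower or higher when its ratio is past 1.5-fold. The 3 tables were normalized separately, so levels set side by side across cell types are a description. In bulk RNA, fewer cells of a type and less RNA per cell cannot be told apart.

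SLRPs have a core protein built of leucine-rich repeats, to which many members attach chondroitin, dermatan or keratan sulfate chains. They bind collagen fibrils and control their diameter and spacing in skin, tendon, cornea and bone, and several also bind TGF-beta and other growth factors or act on cell surface receptors. Fibroblasts are a main source of these proteins, and in the liver they are made mostly by stellate cells and portal fibroblasts.

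Ssu72 was at 3.69 FPKM in Ad-Cre MEFs, against 22.7 FPKM in Ad-Luc MEFs (log2 ratio -2.62). The values were 5.12 FPKM in Ad-Cre and 26.0 FPKM in Ad-Luc hepatocytes (-2.34), and 44.7 FPKM in Ad-Cre and 99.2 FPKM in Ad-Luc ES cells (-1.15). The fibroblast, hepatocyte and pluripotency marker lists each had their highest summed level in the cell type of that label. Of 10 fibroblast markers, 10 were counted in MEFs (summed level 10221 FPKM in Ad-Cre and 16891 FPKM in Ad-Luc). In hepatocytes 7 of 8 hepatocyte markers were counted (6301 FPKM in Ad-Cre and 8637 FPKM in Ad-Luc), and in ES cells 8 of 8 pluripotency markers (6053 FPKM in Ad-Cre and 6195 FPKM in Ad-Luc). The fibroblast list was not confined to MEFs, since 6 of its 10 genes were also counted in hepatocytes (2565 FPKM in Ad-Cre and 1931 FPKM in Ad-Luc). Nearly all of this sum came from Fn1 and Vim. Fn1 was at 1576 FPKM in Ad-Cre and 1307 FPKM in Ad-Luc hepatocytes, and Vim at 966 FPKM in Ad-Cre and 604 FPKM in Ad-Luc hepatocytes. Pdgfra, Pdgfrb, Thy1 and Postn were below 1 FPKM in both hepatocyte groups. In ES cells 6 genes of the fibroblast list were counted as well, at a sum of 161 FPKM in Ad-Cre and 177 FPKM in Ad-Luc. Over all counted genes the median log2 ratio was 0.04 for MEFs, 0.02 for hepatocytes and 0.01 for ES cells. The cytosolic ribosomal protein genes had medians of 0.26, -0.07 and 0.20 in these cell types, so ratios taken relative to them are lower by 0.26 in MEFs and by 0.20 in ES cells.

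In MEFs, 7 of the 9 SLRP genes were lower in Ad-Cre cells by more than 1.5-fold, where 8.66% of all 12431 counted genes were lower by as much. None of the 9 (0 genes) was higher past this fold, against 8.17% of all counted genes. The median log2 ratio of the 9 genes was -1.53, against 0.04 over all counted genes. The genes that were lower are Aspn, Ogn, Podn, Fmod, Prelp, Lum and Dcn, in the order of their ratios, and Bgn and Omd were within 1.5-fold. Relative to the ribosomal protein genes, 8 of 9 were lower, with Bgn added, where 18.0% of all counted genes were lower and 4.45% were higher.

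In hepatocytes, 5 of the 9 genes could be counted and 0 were past 1.5-fold in either direction, where 5.75% of 11950 counted genes were lower and 6.29% were higher. The median log2 ratio of these 5 genes was -0.10. In ES cells Omd alone could be counted, and it lay within 1.5-fold, where 0.715% of 12035 counted genes were lower and 2.22% were higher. Relative to the ribosomal protein genes, the shares of all counted genes in ES cells were 2.71% lower and 1.29% higher, and Omd again lay within 1.5-fold.

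**Figure D1:**
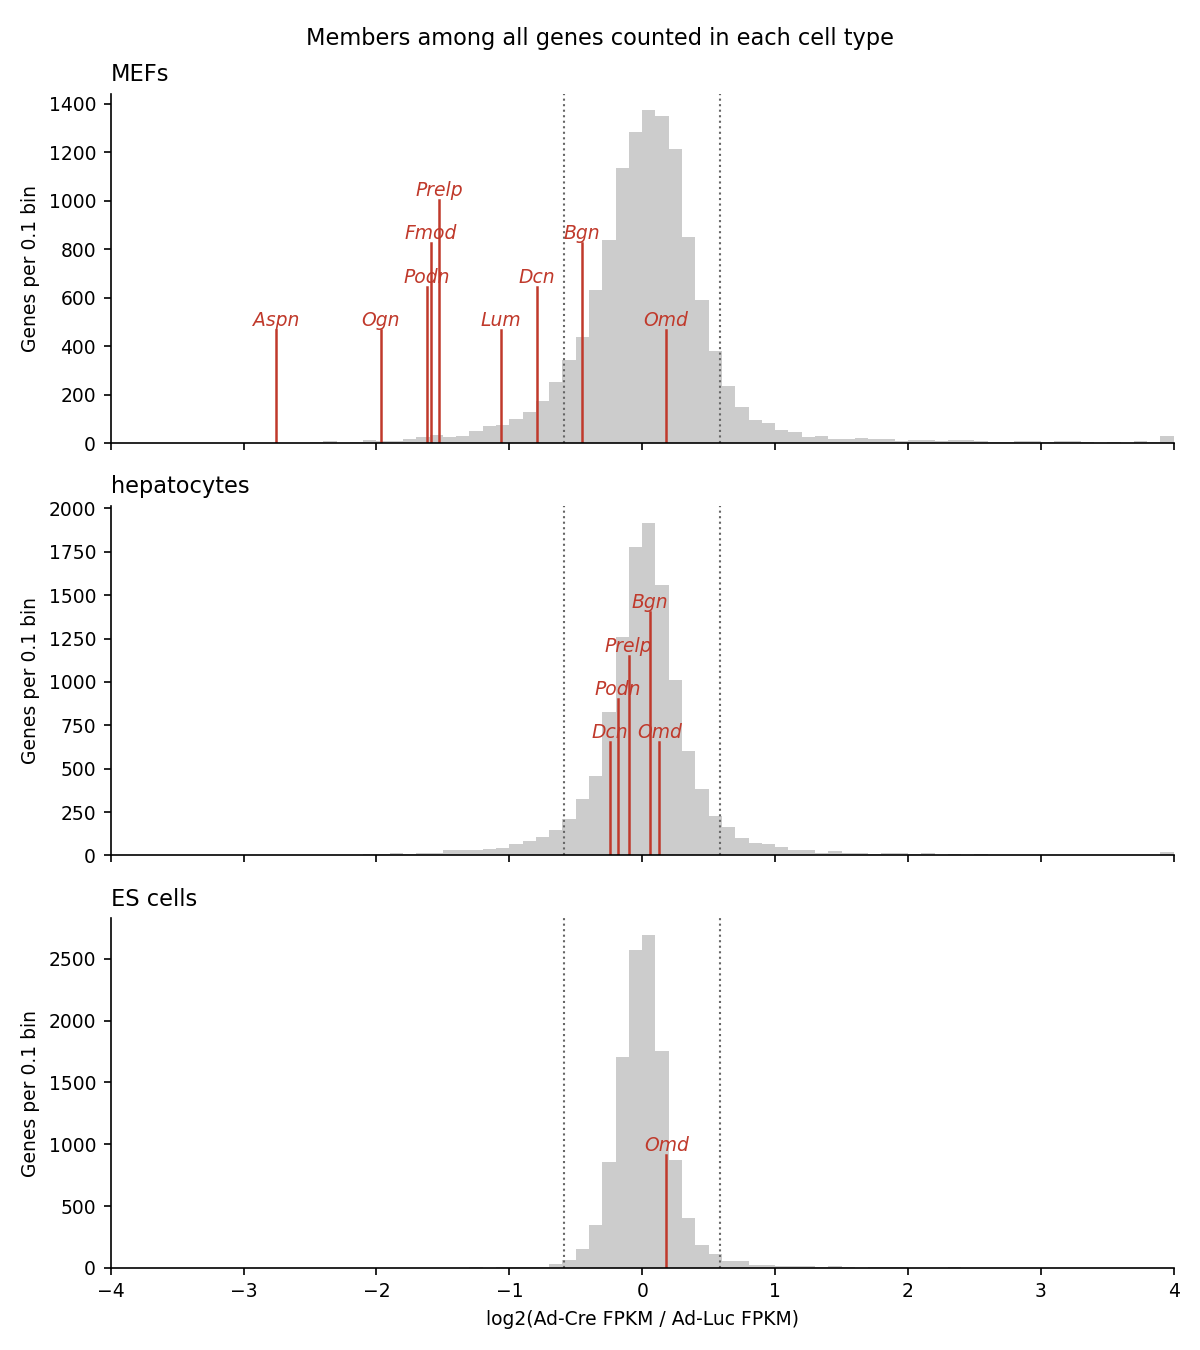
Number of genes (y axis) by log2 ratio of Ad-Cre over Ad-Luc FPKM (x axis, bins of 0.1) for all genes counted in MEFs, hepatocytes and ES cells, with the counted SLRP genes as red lines whose height carries no value. Dotted lines mark 1.5-fold, and ratios beyond 4 in either direction stand in the outermost bins. In MEFs 7 of 9 members lie left of the dotted line at the low end, and in hepatocytes and ES cells none does.

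Dcn, Bgn and Aspn form class I. Dcn encodes decorin, which binds collagen I fibrils and TGF-beta, and lies at chr10:97479609-97518143 (mm10, plus strand). It was at 473 FPKM in Ad-Cre MEFs, against 821 FPKM in Ad-Luc MEFs, a log2 ratio of -0.79 or 1.73-fold lower. In the order of all genes by level, Dcn stood at place 187 in Ad-Cre MEFs and at place 107 in Ad-Luc MEFs. The values of Dcn in hepatocytes were 0.981 FPKM in Ad-Cre and 1.16 FPKM in Ad-Luc cells (log2 ratio -0.24), and in ES cells 0.0625 FPKM in Ad-Cre and 0.0270 FPKM in Ad-Luc cells, too low to be counted. Dcn was thus abundant in MEFs and reached 1 FPKM outside them in Ad-Luc hepatocytes alone.

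Bgn encodes biglycan, a relative of decorin that usually carries a pair of chondroitin or dermatan sulfate chains, and lies at chrX:73483602-73495933 (plus strand). It had the highest level of the 9 genes in MEFs, with 2297 FPKM in Ad-Cre cells and 3145 FPKM in Ad-Luc cells. Its log2 ratio was -0.45, or 1.37-fold lower, which is short of 1.5-fold. Relative to the ribosomal protein genes the log2 ratio was -0.71 and past 1.5-fold. Among all genes Bgn held place 19 in Ad-Cre MEFs and place 10 in Ad-Luc MEFs. Hepatocytes had 2.18 FPKM in Ad-Cre and 2.09 FPKM in Ad-Luc cells (log2 ratio 0.06), and ES cells had 0.822 FPKM in Ad-Cre and 0.591 FPKM in Ad-Luc cells. The ratio of Dcn to Bgn by FPKM was 0.206 in Ad-Cre MEFs and 0.261 in Ad-Luc MEFs.

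Aspn encodes asporin, a class I protein with a run of aspartates that binds collagen and calcium and inhibits TGF-beta. Its level was 7.36 FPKM in Ad-Cre MEFs, against 49.8 FPKM in Ad-Luc MEFs, a log2 ratio of -2.76 or 6.76-fold lower. This ratio was at place 7 from the lowest of the 12431 counted genes, next to that of Ssu72 itself at place 8. By level Aspn stood at place 7486 in Ad-Cre MEFs and at place 1715 in Ad-Luc MEFs. Outside MEFs the gene was nearly silent, at 0.0217 FPKM in Ad-Cre and 0.0519 FPKM in Ad-Luc hepatocytes, and at 0.00973 FPKM in Ad-Cre and 0.0189 FPKM in Ad-Luc ES cells. The summed FPKM of the 3 class I genes in MEFs was 2778 in Ad-Cre and 4016 in Ad-Luc cells, and Bgn and Dcn made up nearly all of it.

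Lum, Fmod, Prelp and Omd form class II, whose proteins can carry keratan sulfate or tyrosine sulfate. Lum encodes lumican, which keeps collagen fibrils thin and evenly spaced in the cornea, and lies at chr10:97565128-97572703 (plus strand), next to Dcn. It was at 150 FPKM in Ad-Cre MEFs, against 314 FPKM in Ad-Luc MEFs (log2 ratio -1.06, 2.09-fold lower). Lum was the third member by level in MEFs, after Bgn and Dcn, in both groups. In hepatocytes Lum was at 0.0627 FPKM in Ad-Cre and 0.0335 FPKM in Ad-Luc cells, and in ES cells at 0.0617 FPKM in Ad-Cre and 0.0277 FPKM in Ad-Luc cells.

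Fmod, at chr1:134037254-134048277 (plus strand), encodes fibromodulin, which binds collagen I and acts on fibril growth in tendon. Fmod had 3.06 FPKM in Ad-Cre MEFs and 9.21 FPKM in Ad-Luc MEFs, a log2 ratio of -1.59 or 3.01-fold lower. In hepatocytes it was at 0.00583 FPKM in Ad-Cre cells and listed at 0 in Ad-Luc cells. ES cells had 0.0184 FPKM after Ad-Cre, and Fmod was again listed at 0 after Ad-Luc. A value of 0 in these tables need not mean absence, since the ribosomal protein gene Rpl26 was listed at 0 in Ad-Luc MEFs and at 4.07 FPKM in Ad-Cre MEFs.

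Prelp, at chr1:133910304-133921414 (minus strand), encodes an arginine- and proline-rich protein that ties basement membranes to collagen. In MEFs its values were 3.81 FPKM after Ad-Cre and 11.0 FPKM after Ad-Luc (log2 ratio -1.53, 2.89-fold lower). Prelp was the member with the highest level in hepatocytes, where it had 10.2 FPKM in Ad-Cre and 11.0 FPKM in Ad-Luc cells (log2 ratio -0.10). It made up 58.4% of the summed FPKM of the 9 genes in Ad-Cre hepatocytes and 60.4% in Ad-Luc hepatocytes. The Ad-Luc levels of Prelp in MEFs and in hepatocytes were thus alike, although the tables were normalized separately, and its ratio was past 1.5-fold in MEFs and not in hepatocytes; that difference was not tested. In ES cells Prelp was at 0.0249 FPKM in Ad-Cre and 0.0272 FPKM in Ad-Luc cells. Exons of Prelp overlap those of the annotated gene Gm15851.

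Omd encodes osteomodulin, a keratan sulfate proteoglycan of bone. It was at 3.12 FPKM in Ad-Cre MEFs and 2.76 FPKM in Ad-Luc MEFs, a log2 ratio of 0.18. Hepatocytes had 3.07 FPKM in Ad-Cre and 2.81 FPKM in Ad-Luc cells (0.13). ES cells had 10.9 FPKM after Ad-Cre and 9.65 FPKM after Ad-Luc (0.18), where Omd was 87.8% of the summed FPKM of the 9 genes in Ad-Cre and 89.6% in Ad-Luc cells. Omd was the only member counted in every cell type with a ratio above 0 in each, and relative to the ribosomal protein genes it was -0.08 in MEFs and -0.02 in ES cells. It was also the only member whose level was highest in ES cells.

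Ogn, the class III member, encodes osteoglycin (mimecan), which acts in collagen fibril assembly in bone, cornea and vessel walls. Ogn was at 10.2 FPKM in Ad-Cre MEFs, against 39.8 FPKM in Ad-Luc MEFs (log2 ratio -1.97, 3.91-fold lower), and its ratio was at place 39 from the lowest. Hepatocytes had 0.0448 FPKM after Ad-Cre and 0.0184 FPKM after Ad-Luc, and ES cells had 0.0202 FPKM in Ad-Cre and 0.0145 FPKM in Ad-Luc cells. The ratio of Aspn to Ogn by FPKM was 0.723 in Ad-Cre MEFs and 1.25 in Ad-Luc MEFs, so Aspn stood below Ogn in Ad-Cre MEFs and above it in Ad-Luc MEFs.

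Podn, the class V member at chr4:108014791-108096445 (minus strand), encodes podocan, which binds collagen and restrains growth of smooth muscle cells. Its level was 4.56 FPKM in Ad-Cre MEFs and 14.0 FPKM in Ad-Luc MEFs (log2 ratio -1.62, 3.07-fold lower). In hepatocytes the values were 0.894 FPKM in Ad-Cre and 1.02 FPKM in Ad-Luc cells (-0.18), and in ES cells 0.502 FPKM in Ad-Cre and 0.410 FPKM in Ad-Luc cells. GENCODE places the far end of Podn beyond the locus deposited for it, which ends at 108032090.

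**Figure D2:**
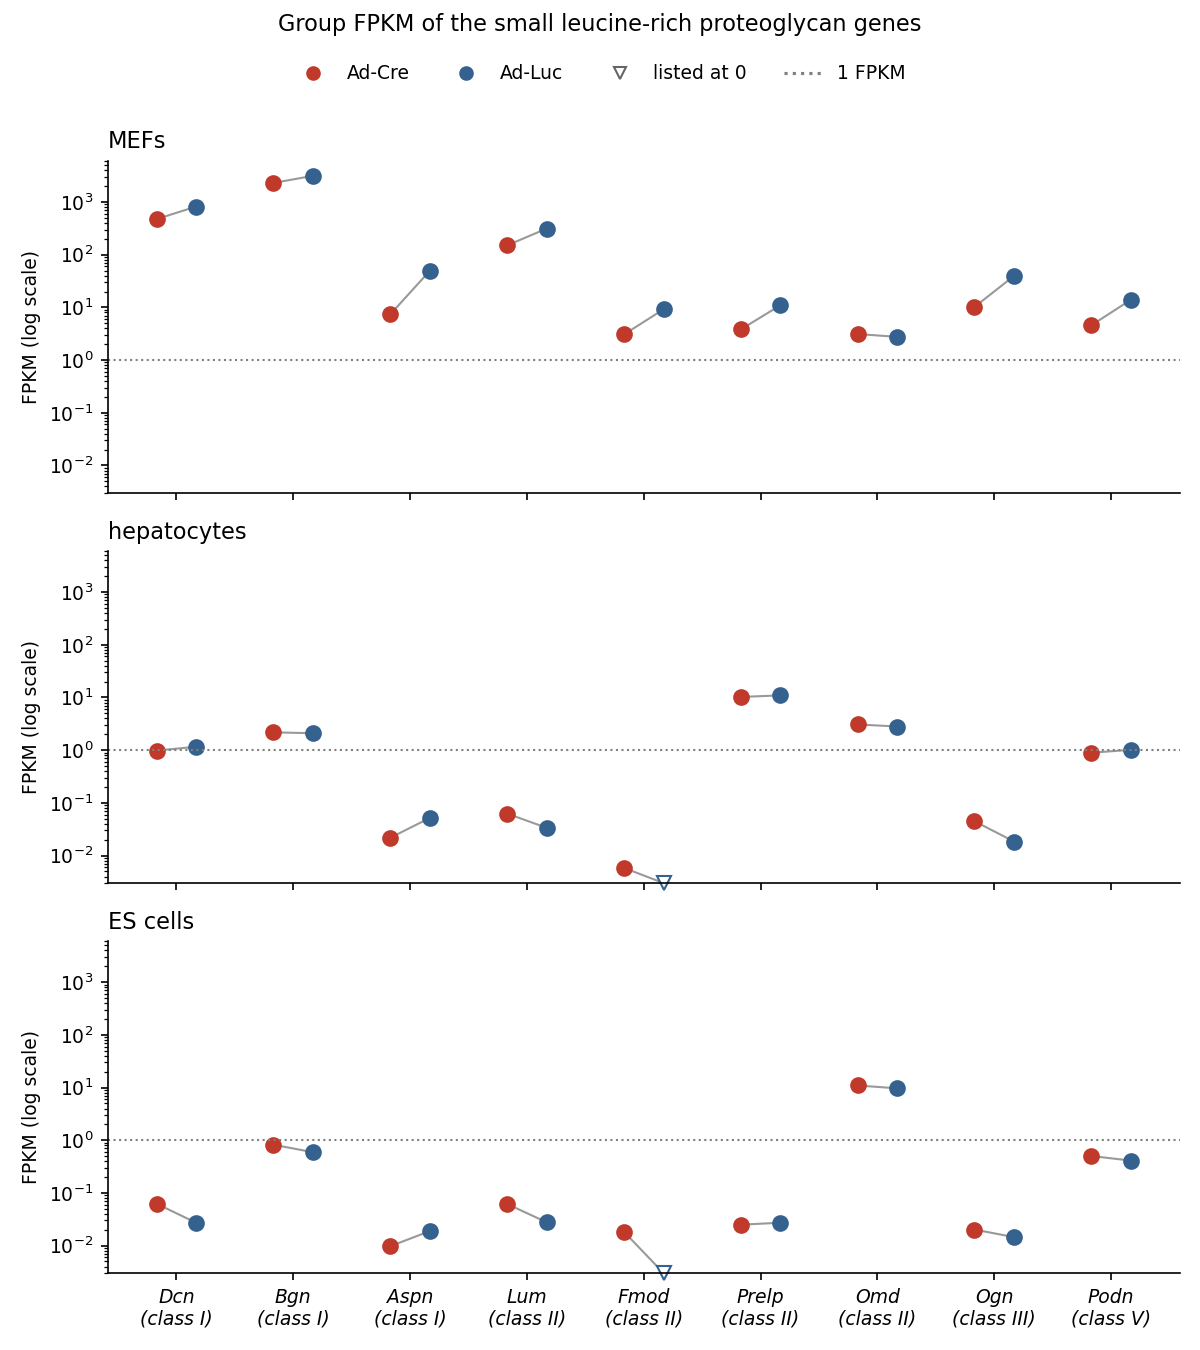
FPKM of each SLRP gene (log y axis) in the Ad-Cre group (red, left) and the Ad-Luc group (blue, right) of MEFs, hepatocytes and ES cells, 1 value per group and with no error because no values per sample were used. Open triangles mark values listed at 0 and the dotted line marks 1 FPKM. Bgn, Dcn and Lum stand at 150 FPKM or more in MEFs, Prelp leads in hepatocytes and Omd in ES cells.

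Bgn, Dcn and Lum, the members of highest level in MEFs, together had 2920 FPKM in Ad-Cre MEFs and 4280 FPKM in Ad-Luc MEFs, a log2 ratio of -0.55. The other 6 genes together had 32.1 FPKM in Ad-Cre and 127 FPKM in Ad-Luc cells, a log2 ratio of -1.98. These sums are set mostly by their most abundant genes, Bgn in the first and Aspn and Ogn in the second, and no order of the ratios by level is drawn from them, since Omd, of the lowest level in Ad-Luc MEFs, was at 0.18 and Lum was at -1.06. The sum over all 9 was 2953 FPKM in Ad-Cre and 4406 FPKM in Ad-Luc MEFs (-0.58), and without Bgn it was 655 FPKM in Ad-Cre and 1261 FPKM in Ad-Luc cells (-0.94). Bgn was 77.8% of the summed FPKM in Ad-Cre MEFs and 71.4% in Ad-Luc MEFs. In hepatocytes the sum was 17.5 FPKM after Ad-Cre and 18.2 FPKM after Ad-Luc, and in ES cells 12.5 FPKM in Ad-Cre and 10.8 FPKM in Ad-Luc cells.

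Aspn, Omd and Ogn lie side by side on chromosome 13, and this interval is shown in sequence because genes that share it had unlike ratios. Aspn is at chr13:49544443-49567565, Omd at chr13:49582462-49592822 and Ogn at chr13:49608046-49624501 (mm10, all on the plus strand). All of them, with the related gene Ecm2, lie in intron 5 of the transcript Cenpp-201, whose gene Cenpp encodes a kinetochore protein and runs on the minus strand. Omd starts 38019 bp and Ogn 63603 bp after the start of Aspn. In the deposited tables Aspn, Omd, Ogn, Ecm2 and Cenpp share the locus chr13:49464059-49652731. An exon of Aspn overlaps an exon of another Cenpp transcript, exons of Omd and Ogn overlap none of another gene, and whether strand was used in counting is not given in the sources used here.

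The 150 bases before the RefSeq start (GRCm38.p6, the same build) of these genes, and of Bgn as the most abundant member, are printed 5′ to 3′ on the strand of the gene. Capitals mark a GGAATG (TEAD motif) or a GGGCGG (GC box), which on the printed strand of Bgn reads CCGCCC. The windows are chr13:49544293-49544442 for Aspn, chr13:49582312-49582461 for Omd, chr13:49607865-49608014 for Ogn and chrX:73483451-73483600 for Bgn.
Aspn: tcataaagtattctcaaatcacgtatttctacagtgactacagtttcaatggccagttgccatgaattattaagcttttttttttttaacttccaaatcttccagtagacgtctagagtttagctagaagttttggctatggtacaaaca
Omd: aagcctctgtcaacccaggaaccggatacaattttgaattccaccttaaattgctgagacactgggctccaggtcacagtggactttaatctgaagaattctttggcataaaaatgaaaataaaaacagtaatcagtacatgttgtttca
Ogn: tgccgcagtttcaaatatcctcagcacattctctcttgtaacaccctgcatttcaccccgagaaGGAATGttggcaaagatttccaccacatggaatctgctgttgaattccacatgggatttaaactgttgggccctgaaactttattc
Bgn: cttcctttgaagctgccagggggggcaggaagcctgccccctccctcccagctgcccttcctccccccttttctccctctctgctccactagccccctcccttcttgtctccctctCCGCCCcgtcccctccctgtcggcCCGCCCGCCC
These windows were searched on either strand for the TATA box (letters TATAAA), the GC box (letters GGGCGG), the CCAAT box (letters CCAAT), the AP-1 motif (letters TGANTCA), the TEAD motif (letters GGAATG) and the SMAD motif (letters CAGACA). Among all 32851 mouse promoter windows of this length, 7.57% held the TATA box, 28.6% the GC box, 24.5% the CCAAT box, 4.24% the AP-1 motif, 7.59% the TEAD motif and 10.3% the SMAD motif. Ogn had a TEAD motif from 86 to 81 bases before its start. Bgn had 3 matches to the GC box within 34 bases of its start, of which the nearest pair overlaps. Prelp had a CCAAT box. Podn had a GC box in its window at chr4:108031955-108032104 and no match in its other window, at chr4:108030987-108031136. Aspn, Omd and Fmod had no match, which says only that these letters are not in these windows. Promoters of 7 of the 9 members were found in the RefSeq table, 8 promoters in all, and those of Dcn and Lum were not used here.

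Ogn and Aspn were lower in Ad-Cre MEFs by 3.91-fold and 6.76-fold, while Omd, between them, was within 1.5-fold (log2 ratio 0.18, or -0.08 relative to the ribosomal protein genes). Cenpp was at 0.998 FPKM in Ad-Cre MEFs and 1.71 FPKM in Ad-Luc MEFs (log2 ratio -0.78), and at 1.61 FPKM in Ad-Cre and 2.72 FPKM in Ad-Luc hepatocytes (-0.75). ES cells had 21.6 FPKM of Cenpp after Ad-Cre and 19.7 FPKM after Ad-Luc (0.13). The ratio of Omd to Cenpp by FPKM was 3.13 in Ad-Cre and 1.61 in Ad-Luc MEFs, 1.91 in Ad-Cre and 1.03 in Ad-Luc hepatocytes, and 0.508 in Ad-Cre and 0.491 in Ad-Luc ES cells. Both Omd and Cenpp had their highest levels in ES cells. Ecm2 stayed at or below 0.257 FPKM in all 6 groups.

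**Figure D3:**
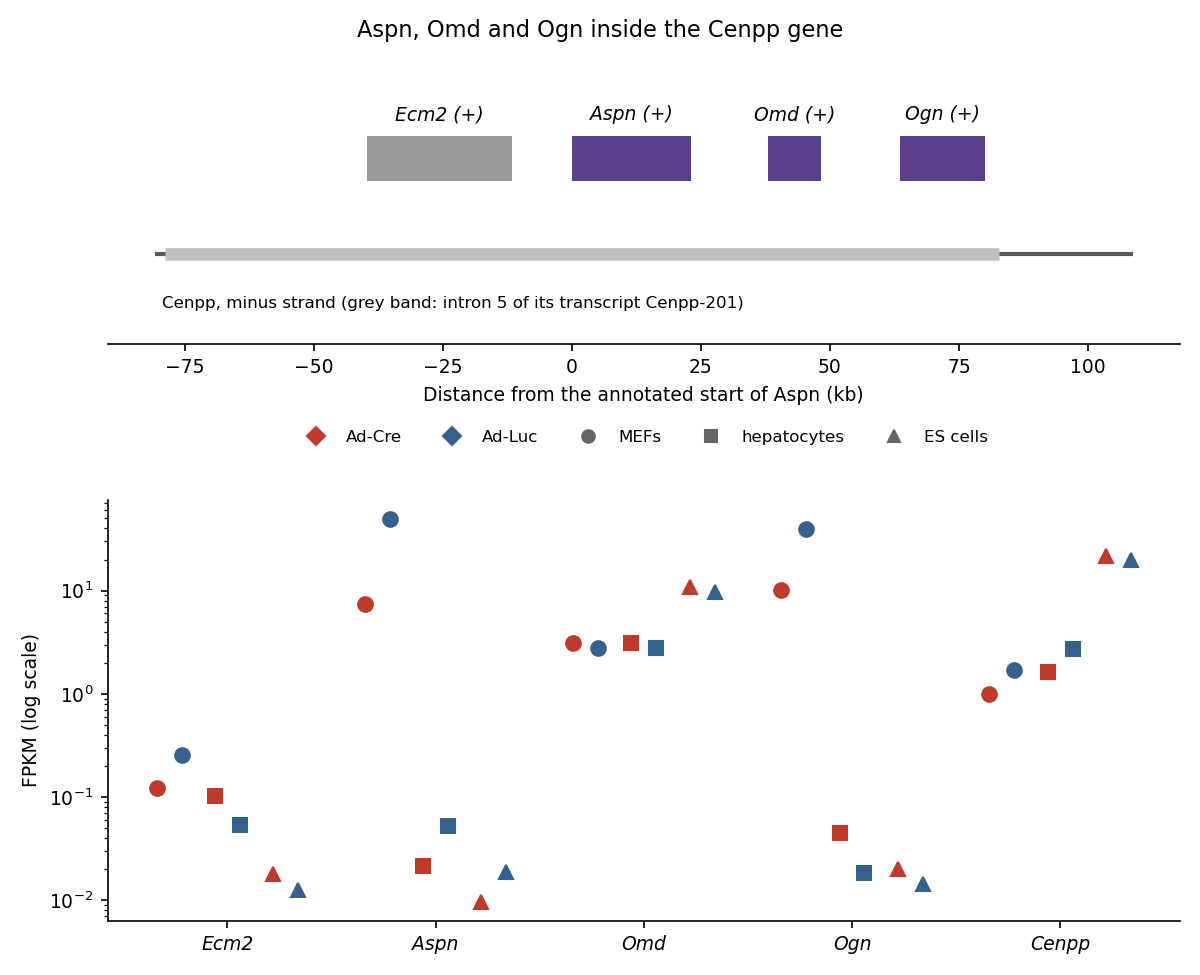
Top, positions to scale of Ecm2, Aspn, Omd and Ogn within Cenpp, in kb from the annotated start of Aspn, with Cenpp transcribed the other way. Bottom, FPKM (log scale) of these genes in the Ad-Cre (red) and Ad-Luc (blue) groups of MEFs (circles), hepatocytes (squares) and ES cells (triangles). Aspn and Ogn are high in MEFs and lower after Ad-Cre there, and Omd and Cenpp are highest in ES cells.

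Of the other members, Dcn and Lum share chromosome 10 with the SLRP genes Kera and Epyc, and Fmod and Prelp share chromosome 1 with Optc, while no related gene stands next to Bgn or Podn in the tables. Of the 11 genes that are the nearest in the tables to a member or contain it, 6 could be counted in MEFs. Btg2 and Cenpp were lower and 0 were higher, where 8.66% of all counted genes were lower and 8.17% were higher. Btg2, an antiproliferative gene that lies 26892 bp beyond Fmod, was at 16.9 FPKM in Ad-Cre MEFs and 37.6 FPKM in Ad-Luc MEFs (log2 ratio -1.15). Optc, which lies 2304 bp from Prelp, was at 1.69 FPKM in Ad-Cre and 1.27 FPKM in Ad-Luc cells (0.41). Haus7 next to Bgn had 14.7 FPKM in Ad-Cre and 13.7 FPKM in Ad-Luc MEFs (0.10), and Nol8 after Ogn had a log2 ratio of 0.37.

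Of 9 further SLRP genes, 4 could be counted in MEFs, with 1 lower, 1 higher (8.66% and 8.17% over all counted genes) and a median log2 ratio of 0.17, or -0.09 relative to the ribosomal protein genes. Podnl1, a relative of Podn, was at 2.05 FPKM in Ad-Cre and 3.55 FPKM in Ad-Luc MEFs (-0.79). Chadl, related to chondroadherin, was at 2.06 FPKM in Ad-Cre and 0.852 FPKM in Ad-Luc cells (1.27). Tsku, a secreted inhibitor of several signalling pathways, lay within 1.5-fold, with 85.4 FPKM in Ad-Cre and 89.9 FPKM in Ad-Luc MEFs (-0.07). In hepatocytes Tsku was at 73.6 FPKM in Ad-Cre and 79.9 FPKM in Ad-Luc cells (-0.12), above every one of the 9 members there. Kera and Epyc, the corneal and cartilage members of the chromosome 10 cluster, stayed at or below 0.339 FPKM in MEFs and were listed at 0 in hepatocytes and ES cells.

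The collagens that SLRPs bind were lower in MEFs without exception among those listed. All 11 were counted and 11 were lower past 1.5-fold, where 8.66% of all counted genes were lower. Their median log2 ratio was -0.96, and their summed level was 7028 FPKM in Ad-Cre and 14114 FPKM in Ad-Luc MEFs. Col3a1 was at 405 FPKM in Ad-Cre and 1468 FPKM in Ad-Luc MEFs (-1.86), Col1a1 at 3612 FPKM in Ad-Cre and 7076 FPKM in Ad-Luc cells (-0.97), Col1a2 at 1734 FPKM in Ad-Cre and 3222 FPKM in Ad-Luc cells (-0.89), and Col5a2 at 467 FPKM in Ad-Cre and 729 FPKM in Ad-Luc cells (-0.64). Dcn and Bgn, with -0.79 and -0.45, thus lay closer to 0 than Col1a1, and Aspn and Ogn, with -2.76 and -1.97, lay below Col3a1. In hepatocytes 6 of the 11 were counted and their median was 0.36. Of these, 0 were past 1.5-fold, where 5.75% of all counted genes were lower and 6.29% were higher.

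Of 25 counted genes that build chondroitin and dermatan sulfate chains, 10 were lower and 0 higher in Ad-Cre MEFs, with a median of -0.45. Over all counted genes 8.66% were lower and 8.17% were higher. Relative to the ribosomal protein genes 14 of the 25 were lower, with a median of -0.71, where 18.0% of all counted genes were lower. Csgalnact1, which starts the chondroitin chain, was at 14.2 FPKM in Ad-Cre and 38.8 FPKM in Ad-Luc MEFs (-1.45), and Chpf2, of the chain-extending complex, at 31.0 FPKM in Ad-Cre and 69.1 FPKM in Ad-Luc cells (-1.16). The sulfotransferases Chst11 and Chst12 were at 15.2 FPKM in Ad-Cre and 26.9 FPKM in Ad-Luc cells (-0.82) and at 32.7 FPKM in Ad-Cre and 51.7 FPKM in Ad-Luc cells (-0.66). Of 5 counted genes for keratan sulfate, 0 were past 1.5-fold, with a median of 0.01 that was -0.03 relative to the median gene and -0.25, with 2 genes lower, relative to the ribosomal protein genes. The difference between the chains was not tested. Within 1.5-fold, Chst2 of the keratan sulfate list was 1.44-fold lower (-0.53) and B4galt1 1.35-fold lower (-0.43). In hepatocytes 22 genes for chondroitin and dermatan sulfate were counted, 0 were lower and 1 was higher, against 5.75% and 6.29% of all counted genes. The higher gene was the sulfotransferase gene Ust, at 1.76 FPKM in Ad-Cre and 1.17 FPKM in Ad-Luc cells (0.59). Ust was within 1.5-fold relative to the median gene, where 1 other gene of the list was lower.

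Among 10 proteases that cut SLRPs, 5 were lower and 1 was higher in Ad-Cre MEFs, with a median of -0.51. Over all counted genes 8.66% were lower and 8.17% were higher. Mmp2 was at 381 FPKM in Ad-Cre and 657 FPKM in Ad-Luc MEFs (-0.79), Mmp14 at 516 FPKM in Ad-Cre and 774 FPKM in Ad-Luc cells (-0.59), and Adamts1 at 38.7 FPKM in Ad-Cre and 67.3 FPKM in Ad-Luc cells (-0.80). Mmp9 was at 42.6 FPKM in Ad-Cre and 28.2 FPKM in Ad-Luc cells (0.59), and within 1.5-fold relative to the median gene or the ribosomal protein genes. Of 16 counted receptors and growth factors that SLRPs bind, 6 were lower and 2 higher, with a median of -0.39. Relative to the ribosomal protein genes 9 were lower and 1 higher, against 18.0% and 4.45% of all counted genes. The higher genes were Kdr, a receptor of endothelial growth factors, at 7.64 FPKM in Ad-Cre and 3.93 FPKM in Ad-Luc MEFs (0.96), and the growth factor gene Bmp2, at 8.76 FPKM in Ad-Cre and 5.46 FPKM in Ad-Luc MEFs (0.68), both named after their values were seen. Tgfb3, a ligand that decorin binds, was at 43.1 FPKM in Ad-Cre and 92.1 FPKM in Ad-Luc MEFs (-1.09), the receptor gene Tlr2 at 31.4 FPKM in Ad-Cre and 57.3 FPKM in Ad-Luc cells (-0.87), Lrp1, which takes up decorin, at 213 FPKM in Ad-Cre and 325 FPKM in Ad-Luc cells (-0.61), and Wisp1 at 68.3 FPKM in Ad-Cre and 128 FPKM in Ad-Luc cells (-0.90). In hepatocytes 13 receptors and growth factors were counted, with 1 lower and 2 higher, against 5.75% and 6.29% of all counted genes. Ctgf was at 423 FPKM in Ad-Cre and 144 FPKM in Ad-Luc hepatocytes (1.56). Wisp1 was at 1.90 FPKM in Ad-Cre and 1.04 FPKM in Ad-Luc hepatocytes (0.86). The lower gene was P2rx7, at 0.651 FPKM in Ad-Cre and 1.18 FPKM in Ad-Luc hepatocytes (-0.86).

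**Figure D4:**
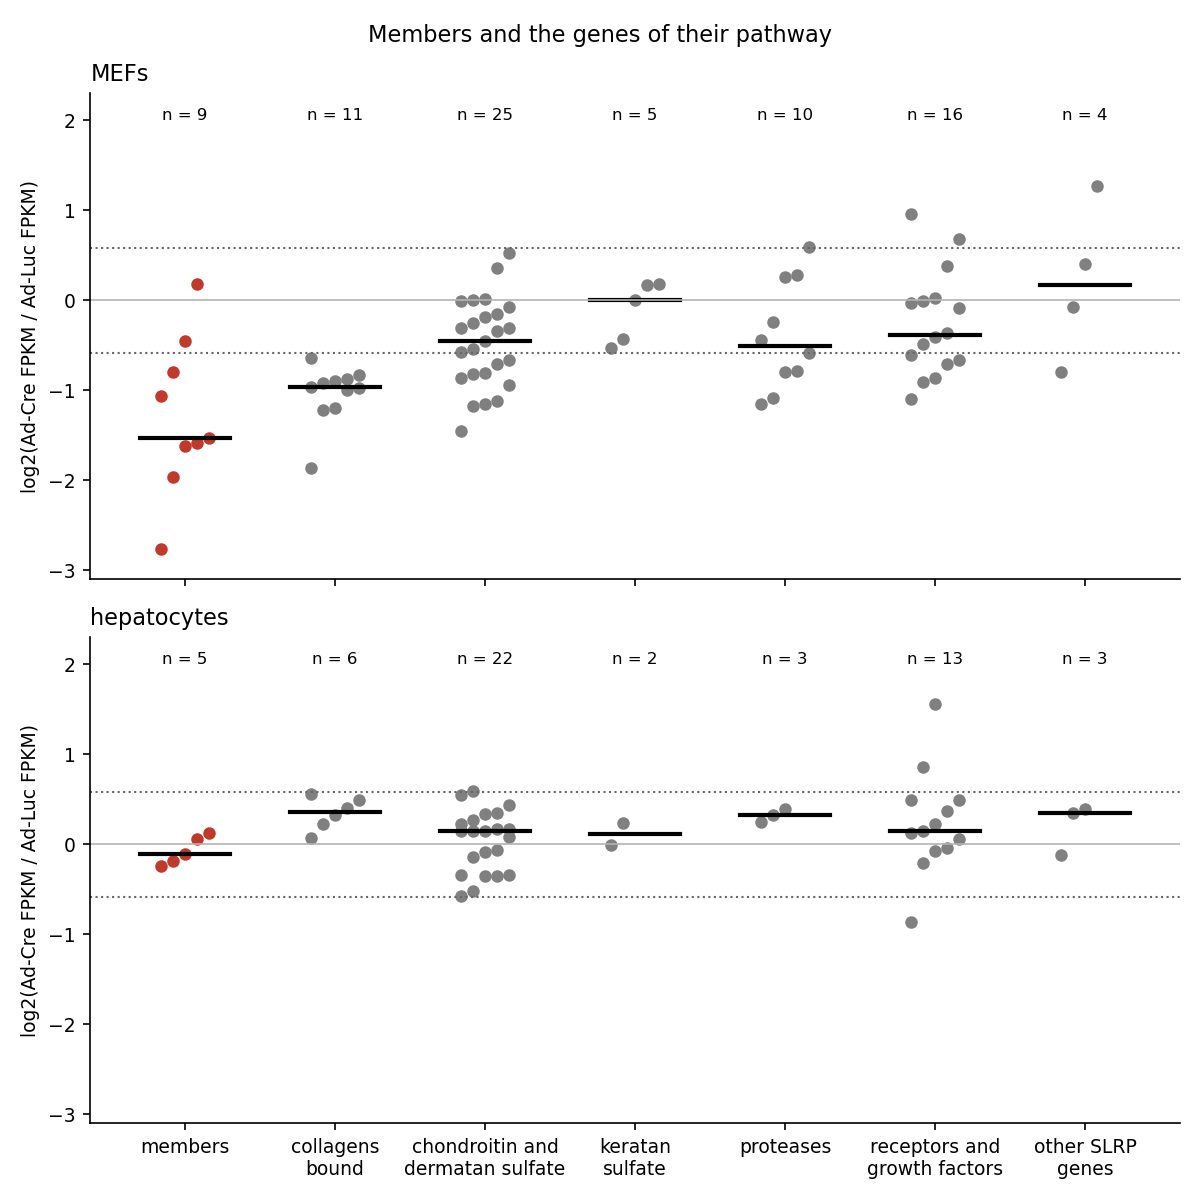
Log2 ratios of Ad-Cre over Ad-Luc FPKM (y axis) of the counted SLRP members (red) and of the listed genes of their pathway (grey) in MEFs (top) and hepatocytes (bottom), 1 point per gene. Black bars are medians, dotted lines mark 1.5-fold and n is the number of genes counted. In MEFs the members have a median of -1.53 and the collagens one of -0.96, while in hepatocytes the medians are -0.10 and 0.36.

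Markers of cell types were followed beside these results. Over all counted genes 8.66% were lower and 8.17% higher in MEFs, and 5.75% were lower and 6.29% higher in hepatocytes. Relative to the ribosomal protein genes these shares were 18.0% and 4.45% in MEFs, and 4.86% and 7.56% in hepatocytes. In MEFs 6 of 10 fibroblast markers were lower and 0 higher (8 of 10 relative to the ribosomal protein genes). The lower ones include Col1a1, Col1a2 and Col3a1, which are also among the collagens above. The other lower ones were Pdgfra (-1.09), Postn (-0.90) and Pdgfrb (-0.79). Within 1.5-fold were Fn1 (-0.36), Thy1 (-0.35), S100a4 (0.22) and Vim (0.28). Of the 7 counted mesothelial markers 6 were lower, with a summed level of 24.8 FPKM in Ad-Cre and 42.2 FPKM in Ad-Luc MEFs over the list. Upk3b of the mesothelial list was at 1.19 FPKM in Ad-Cre and 9.52 FPKM in Ad-Luc MEFs (-3.00), Upk1b at 1.60 FPKM in Ad-Cre and 8.61 FPKM in Ad-Luc cells (-2.42), and Msln at 6.38 FPKM in Ad-Cre and 12.1 FPKM in Ad-Luc cells (-0.92), while Krt19 was higher, at 14.8 FPKM in Ad-Cre and 6.80 FPKM in Ad-Luc cells (1.13). Of the 6 counted skeletal, cartilage and tendon markers 3 were lower, namely the tendon gene Tnmd, at 11.4 FPKM in Ad-Cre and 25.4 FPKM in Ad-Luc cells (-1.16), and the cartilage genes Col2a1 (-0.83) and Sox9 (-0.64). The tendon gene Scx was at 10.4 FPKM in Ad-Cre and 7.20 FPKM in Ad-Luc cells (0.53), Mkx had a log2 ratio of -0.26 and Runx2 one of 0.04. Of 5 stellate cell markers counted in MEFs 3 were lower, namely Pdgfrb (-0.79), Hgf (-1.34) and Des (-1.29), and 0 were higher. Of the endothelial markers Kdr alone was counted in MEFs. In hepatocytes 0 of 8 stellate cell markers reached 1 FPKM (summed level 1.08 FPKM in Ad-Cre and 1.15 FPKM in Ad-Luc), 6 of 7 counted hepatocyte markers were lower, and 1 of 6 counted fibroblast markers, Vim, was higher, at 966 FPKM in Ad-Cre and 604 FPKM in Ad-Luc cells (0.68). Of the mesothelial markers only Krt19 and Msln were counted in hepatocytes, and both were higher. Krt19 was at 33.2 FPKM in Ad-Cre and 11.3 FPKM in Ad-Luc cells (1.56). Msln was at 3.25 FPKM in Ad-Cre and 1.48 FPKM in Ad-Luc cells (1.14). Upk3b, Upk1b, Lrrn4, Wt1 and Gpm6a of this list were below 1 FPKM in both hepatocyte groups. The rise in hepatocytes is thus that of Krt19 and Msln and not of the list. All 5 counted endothelial markers had ratios above 0 there, with a median of 0.53 and a summed level of 20.9 FPKM in Ad-Cre and 14.4 FPKM in Ad-Luc cells over the list, and 1 of them, Pecam1, was higher past 1.5-fold, or 3 relative to the ribosomal protein genes. Of the 10 skeletal, cartilage and tendon markers 2 were counted in hepatocytes. Scx was higher, at 3.90 FPKM in Ad-Cre and 1.24 FPKM in Ad-Luc cells (1.66). Sox9 was at 8.09 FPKM in Ad-Cre and 8.17 FPKM in Ad-Luc cells (-0.01). Sp7, Ibsp and Tnmd were listed at 0 in both hepatocyte groups. Of the Kupffer cell markers 4 were counted in MEFs and 2 in hepatocytes, and 0 were past 1.5-fold. The part of these cell types in the ratios of the SLRP genes was not tested.

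The genes with the most similar pattern to each member were sought among 9371 genes with at least 10 FPKM in some group, by the Euclidean distance of log2(FPKM + 1) over the 6 group values, which share their libraries. Ogn had the closest match, with Tnn at a distance of 0.05, and Tnn was at 10.1 FPKM in Ad-Cre and 39.4 FPKM in Ad-Luc MEFs. Ogn was followed by Lrrc17 (0.23) and Ptn (0.32), and Aspn by Tnn (0.53), Ogn (0.53) and Lrrc17 (0.64). The nearest genes of Dcn were Col5a2 (0.34), Postn (0.69) and Col3a1 (0.97), those of Lum were Col6a1 (0.48), Cdh11 (0.53) and Sod3 (0.66), and those of Bgn were Col1a2 (0.99), Lox (1.77) and Mmp3 (2.10). Like these members, their nearest genes were high in MEFs and low in the other cell types, which follows from choosing them by these levels. A near gene need not have a like ratio. Mmp3 was at 3116 FPKM in Ad-Cre and 2568 FPKM in Ad-Luc MEFs (log2 ratio 0.28), while Bgn had -0.45. Omd, which was highest in ES cells, was nearest to Mettl25 (0.18), Mfap1a (0.32) and Plcg2 (0.35). Prelp was nearest to Avpr1a (0.69), Asah2 (0.72) and Slc41a2 (0.85), and Podn to Sema3b (0.80), Pcdhga10 (0.82) and Nos2 (0.95), while Fmod did not reach 10 FPKM.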

How the data were processed

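RNA from 16 samples of MEFs, hepatocytes and ES cells was sequenced. The FPKM values were made by the authors with Cuffdiff and deposited as 1 table per cell type, with 1 value per group over the group's libraries. Per the submitters' processing notes, the genome was mm10 and the tools included TopHat2 2.0.13 and Cuffdiff 2.2.0, beside CASAVA, edgeR and DESeq, and the annotation is not given in the sources used here. The deposited tables also hold the authors' own log2 fold changes, folds, test statistics, p-values and q-values, which were not used, and 9 shorter tables cut from them by those columns were not used. The depth of each sample is unknown, no SD could be given, and with 1 value per group nothing was tested.

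Log2 ratios were computed without a pseudocount from genes above 0 in both groups with at least 1 FPKM in the higher one (Python 3.11.15, pandas 2.3.3, numpy 2.4.6, figures with matplotlib 3.10.9). The counting code was run on copies of the Ad-Luc values with 2-fold changes planted without noise. That run checks the arithmetic and says nothing about false calls. The members and the 15 gene lists were chosen with earlier results of these data known. The genes named from a list are mainly up to 4 of highest mean FPKM past 1.5-fold, or the 2 of highest FPKM where none was, with all members, their neighbours, the other SLRP genes and the 3 nearest patterns per member. Some lists are not described in every cell type, and further genes of a list are named beside these. Muc16 and Tf had no row in the tables. Positions came from GENCODE M21 and sequences from RefSeq. Alternatives were a 2-fold limit, no minimum, a minimum of 10 FPKM, a pseudocount of 1 FPKM, and ratios centred on the median of all counted genes or of the ribosomal protein genes.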

Additional observations from a re-analysis of the deposited data

How the results depend on the processing

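In MEFs 7 members were lower and 0 higher without a minimum level (12.4% and 16.1% over all genes), with a pseudocount (6.11% and 5.53%) and with centring on the median gene (9.5% and 7.29%). All 9 members already passed the minimum in MEFs, so dropping it could change only the shares over all genes. At 2-fold 6 of 9 were lower, where 3.02% of all counted genes were. With a minimum of 10 FPKM 6 of 7 were lower (8.05% of all genes), and with centring on the ribosomal protein genes 8 of 9 (18.0%). Without a minimum, 1 of 8 members was lower and 2 were higher in hepatocytes, where 8.69% and 14.9% of all genes were, and 1 was lower and 2 were higher of 8 in ES cells, where 4.88% and 8.91% of all genes were. These added members (Aspn lower in each, Lum and Ogn higher in hepatocytes, Dcn and Lum higher in ES cells) stood well below 1 FPKM. Of 69 recomputed member ratios, 66 kept their sign and their side of 1.5-fold. A changed minimum decides only which genes are counted and cannot alter a ratio, so part of this agreement was fixed in advance. The others arose with the ribosomal protein genes as reference, where Bgn in MEFs passed 1.5-fold at -0.71 and Omd was below 0 in MEFs (-0.08) and ES cells (-0.02). No paired analysis was possible because the tables hold 1 value per group, and leaving out single samples was not run for the same reason. Depth is unknown, so values below 1 FPKM carry no stated precision.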

Other observations

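Proteoglycans outside the SLRP family were followed with a list of 28 genes, most of them core proteins. In MEFs 20 were counted, 5 were lower and 2 higher, against 8.66% and 8.17% of all counted genes, with a median log2 ratio of -0.09. Relative to the median gene 6 were lower and 1 higher, against 9.5% and 7.29% of all counted genes. Relative to the ribosomal protein genes 9 were lower and 1 higher, against 18.0% and 4.45%, with a median of -0.34. Vcan, the large chondroitin sulfate proteoglycan versican, was at 127 FPKM in Ad-Cre and 192 FPKM in Ad-Luc MEFs (-0.60). Gpc3, a cell surface glypican, was at 46.7 FPKM in Ad-Cre and 80.3 FPKM in Ad-Luc MEFs (-0.78), and Tgfbr3, the TGF-beta co-receptor betaglycan, at 36.6 FPKM in Ad-Cre and 63.0 FPKM in Ad-Luc MEFs (-0.79). Sdc4 was at 55.4 FPKM in Ad-Cre and 85.8 FPKM in Ad-Luc MEFs (-0.63). The remaining lower gene, Gpc6, and the higher genes, Srgn and Hapln3, were named after their values were seen. Srgn (0.59) was within 1.5-fold relative to the median gene or the ribosomal protein genes. Hapln3, a link protein of hyaluronan rather than a core protein, was at 4.66 FPKM in Ad-Cre and 0.447 FPKM in Ad-Luc MEFs (3.38).

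In hepatocytes 16 genes of this list were counted, 2 were lower and 5 higher, against 5.75% and 6.29% of all counted genes. Prg4, the lubricating proteoglycan of joints that the liver also secretes, was at 25.9 FPKM in Ad-Cre and 59.3 FPKM in Ad-Luc hepatocytes (-1.20). Esm1 was at 3.43 FPKM in Ad-Cre and 1.89 FPKM in Ad-Luc hepatocytes (0.86). Gpc1 was at 9.92 FPKM in Ad-Cre and 6.53 FPKM in Ad-Luc hepatocytes (0.60), which was within 1.5-fold relative to the median gene, and Gpc2 at 4.22 FPKM in Ad-Cre and 2.75 FPKM in Ad-Luc hepatocytes (0.62). Gpc3, Sdc3 and Hapln3, named after their values were seen, make up the rest, and Hapln3 was at 2.16 FPKM in Ad-Cre and 0.0986 FPKM in Ad-Luc hepatocytes (4.45). In ES cells 18 were counted and 0 were past 1.5-fold, where 0.715% of all counted genes were lower and 2.22% were higher.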
